A study of Mus musculus with 4 samples.

Results

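The 10 genes described here mark the macrophages of the heart: Lyve1, Timd4, Folr2, Cd163 and Mrc1, receptors typical of macrophages that live in the tissue for long periods; Csf1r, Adgre1 and Cd68, found on macrophages in general; Cx3cr1, a chemokine receptor of monocytes and macrophages; and Ccr2, the chemokine receptor of monocytes recruited from blood. They were taken by name, and each matched 1 row, so that 10 of the 54752 gene rows in the count table are described. RNA of whole hearts from mice at postnatal day 14 was sequenced in 4 libraries, 2 from hearts labelled Carm1 mutant and 2 from wild-type hearts. Carm1 encodes a protein arginine methyltransferase that marks histone H3, and the study asked how it acts in the maturing heart. No source used here gives the kind of Carm1 allele, a Cre driver, the strain or any pooling of hearts, and the series text calls the hearts neonatal. Nothing states that replicates were separate animals, so p-values measure only the spread between these libraries, which may be technical.

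Macrophages settle in the mouse heart before birth, from yolk sac and fetal liver precursors, and keep their number largely by dividing in place. After birth, and above all after injury, monocytes that carry CCR2 enter from the blood and become macrophages as well. In the mouse heart, macrophages that carry TIMD4, LYVE1 and FOLR2 and lack CCR2 are counted as long-lived residents, and those that carry CCR2 as replaced from blood. Survival of macrophages depends on the receptor CSF1R and on its ligands CSF1 and IL34. Whole-heart RNA is mostly from muscle cells, endothelium and fibroblasts, so that macrophage transcripts make up a small share of it. Fewer macrophages and less RNA per macrophage cannot be told apart in such samples.

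Library totals ran from 11677604 (mutant replicate 2) to 22217442 counts (mutant replicate 1). Carm1 itself had 35.8 and 31.8 CPM (counts per 1000000 of the library) in the mutant hearts, against 45.9 and 52.3 CPM in the wild-type hearts, and was not called (edgeR quasi-likelihood FDR 0.114). It was called without wild type replicate 1 (log2 fold change −0.64, edgeR FDR 0.0201) and without wild type replicate 2. Here CPM are scaled by TMM, a factor per library that aligns the bulk of genes. All 10 genes of the cardiomyocyte list were detected, at 45764 and 49514 summed CPM in the mutant hearts and 93455 and 78812 CPM in the wild-type hearts, in accord with the labelled tissue. Xist, expressed from the inactive X chromosome, had 324 and 289 CPM in mutant and 0.686 and 0.766 CPM in wild type, and of the genes on the Y chromosome Uty, Eif2s3y, Kdm5d and Ddx3y had at most 0.199 CPM in mutant and at least 9.72 CPM in wild type. Genotype and sex therefore cannot be told apart in any comparison below. Chi-square per degree of freedom over genes was 11.5 between the mutant libraries and 51.1 between the wild-type ones, so the wild-type pair differed more.

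None of the macrophage genes was called different between mutant and wild-type hearts. A gene was called when its edgeR quasi-likelihood p, adjusted over all genes tested by the Benjamini-Hochberg method (FDR), was below 0.05. Of the 10 genes 9 passed the filter on low counts and were tested, and 0 of these 9 were called, while 7.37% of all 15283 genes tested were called. In each direction it was 0 of 9, beside 2.79% of all genes called higher in the mutant hearts and 4.58% called lower. By the other tools, DESeq2 and limma-voom, 0 were called as well. At an unadjusted edgeR p below 0.05 there was 1, Cd68, against 27.8% of all genes tested. The libraries of the groups did not overlap for 2 of the 9, Cd68 and Csf1r, and this held for 59% of all genes tested. Both lay higher in the mutant hearts, and 30.3% of all genes tested lay higher without overlap. Of the 9, 0 lay lower without overlap, beside 28.7% of all genes tested. The median log2 fold change of the 9 was −0.04, beside 0.02 over all genes tested, and 2 lay above 0 and 7 below; with library totals alone in place of TMM, which moved the median of all genes to 0.41, 6 of these 7 turned positive and Cx3cr1 stayed negative. The median of the macrophage genes tested was −0.27 without wild type replicate 1 and 0.065 without wild type replicate 2. Summed over the 10 genes, the level was 93.8 and 99.7 CPM in the mutant hearts and 88.4 and 101 CPM in the wild-type hearts, so the groups overlapped.

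**Figure D1:**
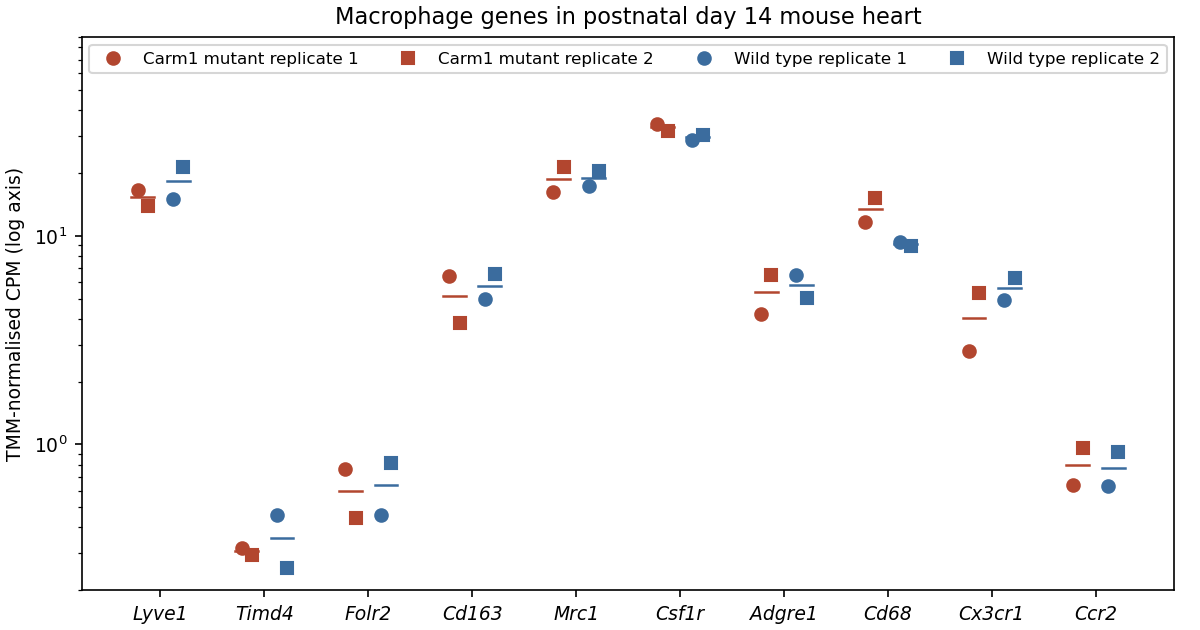
TMM-normalised CPM (log axis) of the 10 macrophage genes in each library, Carm1 mutant hearts in red left of wild-type hearts in blue; short lines are group means of 2 libraries. The red and blue points overlap for every gene other than Csf1r and Cd68, where both mutant points lie above both wild-type points.

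Because longer transcripts yield more reads, levels were compared between genes only after division by the length of the merged exons (CPM per kb). In the mutant hearts the order began with Cd68 at 10.7 ± 2.0 CPM per kb (SD, n = 2), followed by Csf1r at 5.74 ± 0.29, Lyve1 at 5.23 ± 0.66 and Mrc1 at 2.94 ± 0.58. In the wild-type hearts it began with Cd68 at 7.24 ± 0.25 CPM per kb, followed by Lyve1 at 6.24 ± 1.54, Csf1r at 5.13 ± 0.21 and Mrc1 at 2.96 ± 0.34. The wild-type libraries of Cd68 and Lyve1 overlapped, so their order there was not resolved. The order differed between the groups for Csf1r with Lyve1 and for Cd163 with Cx3cr1, and the libraries of these neighbours overlapped in both groups. Adgre1, Cd163, Cx3cr1 and Folr2 lay lower, between 0.388 and 1.65 CPM per kb in mutant and between 0.412 and 1.79 in wild type. Timd4 and Ccr2 were last in both groups, at 0.141 and 0.118 CPM per kb in mutant and 0.164 and 0.115 in wild type, and their libraries overlapped, so the best-known resident marker and the recruited marker could not be ranked against each other.

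Lyve1 (ENSMUSG00000030787, chr7:110850607-110863239 on the minus strand of GRCm38, as all positions of genes here), a hyaluronan receptor, is the most abundant of the 5 resident receptors per length. It had 16.6 and 13.9 CPM in the mutant hearts, against 15.0 and 21.4 CPM in the wild-type hearts. The lowest value was a mutant library and the highest a wild-type one, and the groups overlapped in between. The log2 fold change of −0.25 (SE 0.23, edgeR FDR 0.522) had a 95% interval of 57.8% to 122% of the wild-type level. LYVE1 is also carried by lymphatic endothelium, whose 7 markers had 206 and 195 summed CPM in mutant and 138 and 171 CPM in wild type, with 4 log2 fold changes above 0 and 3 below. The higher sum in mutant rests on Nrp2, a coreceptor that other vessels also carry. Nrp2 rose to 102 and 92.8 CPM in mutant, against 32.1 and 54.4 CPM in wild type (edgeR FDR 0.0404). The median log2 fold change of the 7 markers was 0.03. Of the lymphatic genes chosen after their values were seen, the growth factor receptor gene Flt4 had 35.4 and 36.2 CPM in mutant and 18.8 and 28.1 CPM in wild type (edgeR FDR 0.134). The transcription factor gene Prox1, which cardiomyocytes also express, had 27.2 and 26.7 CPM in mutant and 37.2 and 50.2 CPM in wild type (edgeR FDR 0.0796), and the chemokine gene Ccl21a 22.3 and 23.6 CPM against 32.0 and 19.6 CPM (edgeR FDR 0.707). Nrp2 and Flt4 lay above wild type and Prox1 below without overlap. These were 3 of the 7 markers, while 59% of all genes tested did not overlap. What share of Lyve1 came from lymphatic vessels was not tested.

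Mrc1 (ENSMUSG00000026712, chr2:14229392-14332057, plus strand), the mannose receptor that takes up glycoproteins, had 16.2 and 21.4 CPM in the mutant hearts and 17.3 and 20.4 CPM in the wild-type hearts. The mutant values enclosed the wild-type ones, and the log2 fold change of −0.01 (SE 0.22, edgeR FDR 0.973) was the smallest among the resident receptors. The 95% interval was 70% to 140% of the wild-type level. Cd163 (ENSMUSG00000008845, chr6:124304656-124330527, plus strand), the scavenger receptor for haemoglobin bound to haptoglobin, had 6.42 and 3.83 CPM in mutant, against 4.98 and 6.54 CPM in wild type (log2 fold change −0.15, SE 0.31, edgeR FDR 0.798). The highest and the lowest Cd163 values were a wild-type and a mutant library, yet mutant replicate 1 lay next to the highest.

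Folr2 (ENSMUSG00000032725, chr7:101839988-101857194, minus strand), a folate receptor, and Timd4 (ENSMUSG00000055546, chr11:46810800-46844332, plus strand), a receptor for phosphatidylserine on dying cells, were close to the limit of these libraries. Folr2 had 19 and 6 counts in the mutant hearts (0.758 and 0.442 CPM) and 8 and 16 counts in the wild-type hearts (0.458 and 0.817 CPM), with a log2 fold change of −0.04 (SE 0.58, edgeR FDR 0.969). Its 95% interval was wide, 38.2% to 246% of the wild-type level. Folr2 shares 975 exon bases with the antisense gene Gm10602, which had 5 and 4 counts in mutant and 13 and 5 in wild type, and without strand reads of the overlap could belong to either. Timd4 had 8 and 4 counts in the mutant hearts (0.319 and 0.295 CPM) and 8 and 5 in the wild-type hearts (0.458 and 0.255 CPM). It did not pass the filter, and without a filter its log2 fold change was −0.21 (edgeR FDR 0.920). The exact Poisson interval of the count, which covers counting error only, was 0.0802 to 0.754 CPM in mutant replicate 2 and 0.0829 to 0.596 CPM in wild type replicate 2. A difference in Timd4 within such intervals was not detectable at this depth.

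The start regions of 3 resident receptors are printed because each holds the letters GGAAGT, a core bound by ETS factors such as PU.1 (encoded by Spi1), which directs macrophage development. Capitals mark this motif or its reverse complement ACTTCC, and each line gives the 250 bases upstream of a RefSeq transcript start on GRCm38.p6, 5′ to 3′ in the direction of the gene.
Timd4 (chr11:46810549-46810798, plus strand): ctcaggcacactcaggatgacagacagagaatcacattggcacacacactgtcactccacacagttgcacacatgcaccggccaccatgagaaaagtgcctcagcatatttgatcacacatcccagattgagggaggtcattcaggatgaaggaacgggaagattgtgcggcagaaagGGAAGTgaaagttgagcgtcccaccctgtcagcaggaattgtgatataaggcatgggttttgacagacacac
Folr2 (chr7:101857191-101857440, minus strand): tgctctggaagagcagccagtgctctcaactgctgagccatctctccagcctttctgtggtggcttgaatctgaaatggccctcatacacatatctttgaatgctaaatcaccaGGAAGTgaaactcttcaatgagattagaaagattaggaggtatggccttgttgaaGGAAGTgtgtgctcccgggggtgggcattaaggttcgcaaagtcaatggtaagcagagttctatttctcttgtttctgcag
Mrc1 (chr2:14229164-14229413, plus strand): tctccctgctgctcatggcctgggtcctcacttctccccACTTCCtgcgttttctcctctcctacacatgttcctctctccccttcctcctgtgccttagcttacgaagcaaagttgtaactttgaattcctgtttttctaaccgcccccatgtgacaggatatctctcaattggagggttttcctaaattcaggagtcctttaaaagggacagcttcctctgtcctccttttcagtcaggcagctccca
The RefSeq table matched 7 of the 10 genes with 8 start regions, Folr2 having 2. The motif, searched on both strands, lay in 3 of these 8 regions and in 19.7% of all 32851 regions of the same length. It was at 72 bases upstream of the start in Timd4, at 136 and 81 in Folr2 and, on the opposite strand, at 211 in Mrc1. Cd163, Cd68, Cx3cr1, Ccr2 and the other Folr2 start had no match, which says only that these letters are not in these windows. Spi1, chosen after its values were seen, had 6.94 and 7.66 CPM in the mutant hearts and 7.49 and 5.06 CPM in the wild-type hearts (log2 fold change 0.22, edgeR FDR 0.637).

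Csf1r (ENSMUSG00000024621, chr18:61100598-61132149, plus strand) encodes the receptor tyrosine kinase for CSF1 and IL34. It had 34.3 and 32.0 CPM in the mutant hearts and 28.8 and 30.4 CPM in the wild-type hearts. Both mutant libraries were above both wild-type ones, by a log2 fold change of 0.16 (SE 0.18, edgeR FDR 0.594), and the 95% interval was 84% to 149% of the wild-type level. Csf1r shares 873 exon bases with Hmgxb3 on the opposite strand, and since it is not stated whether counting used strand, reads of the overlap could belong to either gene. Hmgxb3 had 28.1 and 27.8 CPM in mutant and 22.6 and 31.8 CPM in wild type. Of the ligands, chosen after their values were seen, Csf1 had 40.4 and 41.3 CPM in mutant and 40.3 and 44.2 CPM in wild type (edgeR FDR 0.885), and Il34 7.34 and 5.60 CPM in mutant and 4.75 and 6.84 CPM in wild type (edgeR FDR 0.741). Receptor and ligands were thus all measured and none was called.

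Cd68 (ENSMUSG00000018774, chr11:69664213-69666153, minus strand), a lysosomal glycoprotein abundant in phagocytes, came closest to a difference. It had 11.6 and 15.2 CPM in the mutant hearts and 9.32 and 8.89 CPM in the wild-type hearts, without overlap. The log2 fold change was 0.55 (SE 0.22), the edgeR p was 0.0386 before adjustment and the FDR 0.156, so it was not called. The 95% interval, which is not adjusted for the number of genes, was 103% to 209% of the wild-type level. Across the alternative analyses the log2 fold change of Cd68 ran from 0.34 to 0.95 and its adjusted p from 0.0521 to 0.773. Adgre1 (ENSMUSG00000004730, chr17:57358691-57483527, plus strand), the adhesion receptor gene of a classic mouse macrophage antigen, had 4.23 and 6.48 CPM in mutant and 6.52 and 5.06 CPM in wild type (log2 fold change −0.13, SE 0.30, edgeR FDR 0.812). Its groups overlapped, unlike those of Cd68.

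Cx3cr1 (ENSMUSG00000052336, chr9:119901616-120069879, minus strand), the receptor for the membrane-bound chemokine CX3CL1, had the most negative log2 fold change of the 9, −0.50 (SE 0.35, edgeR FDR 0.387). It had 2.79 and 5.30 CPM in the mutant hearts and 4.92 and 6.28 CPM in the wild-type hearts, and the value rests on mutant replicate 1: without that library the log2 fold change was −0.08, and without mutant replicate 2 it was −1.01. Of the genes that overlap its annotated span, Gm33858 shares 78 exon bases and had at most 1 count. Its ligand Cx3cl1, chosen after its values were seen, had 10.2 and 10.2 CPM in mutant and 6.92 and 6.95 CPM in wild type (log2 fold change 0.56, edgeR FDR 0.133). Cx3cl1 did not overlap between the groups, as held for 59% of all genes tested, and was not called.

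Ccr2 (ENSMUSG00000049103, chr9:124101950-124113557, plus strand), the receptor by which monocytes follow CCL2 into tissue, was low in both groups. It had 16 and 13 counts in the mutant hearts (0.638 and 0.957 CPM) and 11 and 18 counts in the wild-type hearts (0.629 and 0.919 CPM). The groups overlapped, with a log2 fold change of −0.003 (SE 0.48, edgeR FDR 0.997), and the 95% interval ran from 46% to 217% of the wild-type level, so these counts leave a wide range of differences undetected. The CCR2 ligands, chosen after their values were seen, were low too. Ccl2 had 0.758 and 2.58 CPM in mutant and 1.83 and 1.07 CPM in wild type, Ccl7 0.439 and 0.589 CPM against 0.40 and 0.153 CPM, and Ccl12 0.718 and 1.47 CPM against 0.801 and 0.358 CPM. None of these 3 was called (edgeR FDR 0.395 to 0.912).

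**Figure D2:**
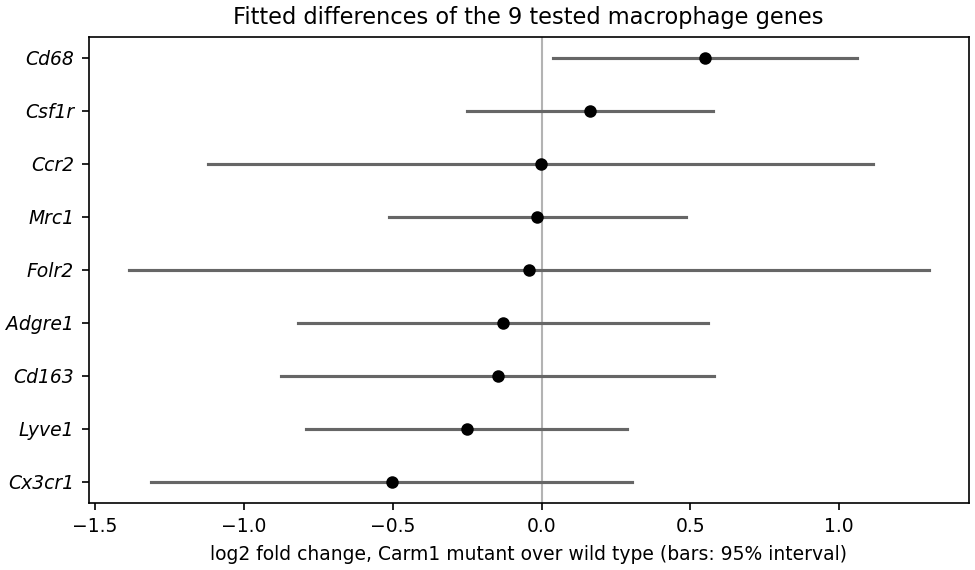
Log2 fold change of Carm1 mutant over wild-type hearts for the 9 tested macrophage genes (points) with 95% intervals from the edgeR fit (bars), not adjusted for multiple genes. Every interval other than that of Cd68 spans 0, and those of Folr2 and Ccr2 are the widest.

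Ratios within a library do not depend on how libraries are scaled. The 5 resident receptors made up 42.9% and 40% of the summed counts of the 10 genes in the mutant hearts, against 43.3% and 48.9% in the wild-type hearts. Their exact 95% counting intervals (Clopper-Pearson) were 40.9% to 45.0% and 37.3% to 42.6% in mutant, and 40.8% to 45.8% and 46.7% to 51.1% in wild type. The means were 41.4 ± 2.1% and 46.1 ± 4.0% (SD, n = 2 each). Mutant replicate 1 and wild type replicate 1 were almost equal, and an exact two-sided permutation test gave p = 0.333, the smallest that 2 against 2 allows. The difference of −4.65 percentage points was −1.83 without wild type replicate 2 and −7.47 without wild type replicate 1. Without Mrc1 the groups overlapped, at 31.1% and 23.6% in mutant and 29.4% and 36.0% in wild type. As shares of CPM per kb they did not overlap, at 36.9% and 30.6% in mutant and 37.3% and 44.5% in wild type.

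Set against Csf1r in the same library, Ccr2 had 1.86 and 2.99 counts per 100 Csf1r counts in the mutant hearts and 2.19 and 3.02 in the wild-type hearts. The groups overlapped (exact two-sided permutation p = 0.667). The same ratio for the other genes was added after their values were seen. Lyve1 had 48.5 and 43.5 counts per 100 Csf1r counts in mutant and 52.3 and 70.3 in wild type, Cx3cr1 8.14 and 16.6 against 17.1 and 20.6, and Cd68 33.8 and 47.5 against 32.4 and 29.2. These 3 did not overlap, Lyve1 and Cx3cr1 being lower and Cd68 higher in the mutant hearts. Each had the smallest exact two-sided permutation p the design allows (0.333). No share over all genes was computed for ratios to Csf1r, and by CPM 59% of all genes tested did not overlap. Timd4, Folr2, Cd163, Mrc1, Adgre1 and Ccr2 overlapped.

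Set against Cd68 instead, also after the values were seen, Lyve1, Timd4, Mrc1, Adgre1, Cx3cr1 and Ccr2 were lower in both mutant libraries than in both wild-type ones, and Folr2 and Cd163 overlapped. Mrc1 had 139 and 141 counts per 100 Cd68 counts in mutant and 186 and 229 in wild type, Adgre1 36.4 and 42.7 against 69.9 and 56.9, and Lyve1 143 and 91.7 against 161 and 241. Ccr2 had 5.50 and 6.31 counts per 100 Cd68 counts in mutant and 6.75 and 10.3 in wild type. All these ratios hold the higher Cd68 of the mutant libraries in their denominator, and the exact permutation p was again the smallest possible, 0.333. No share over all genes set against Cd68 was computed. Timd4 and Ccr2 rest on few counts, 4 to 8 and 11 to 18 per library, and both overlapped when set against Csf1r. Cd68 has 1257 bases of merged exons, the fewest of the 10 genes, against 6371 in Mrc1, 5774 in Csf1r and 6760 in Ccr2, and the wild-type libraries went opposite ways with exon length (Spearman's rho across genes −0.30 in replicate 1 and 0.25 in replicate 2). The part of length in these ratios, and in those to Csf1r, was not tested.

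**Figure D3:**
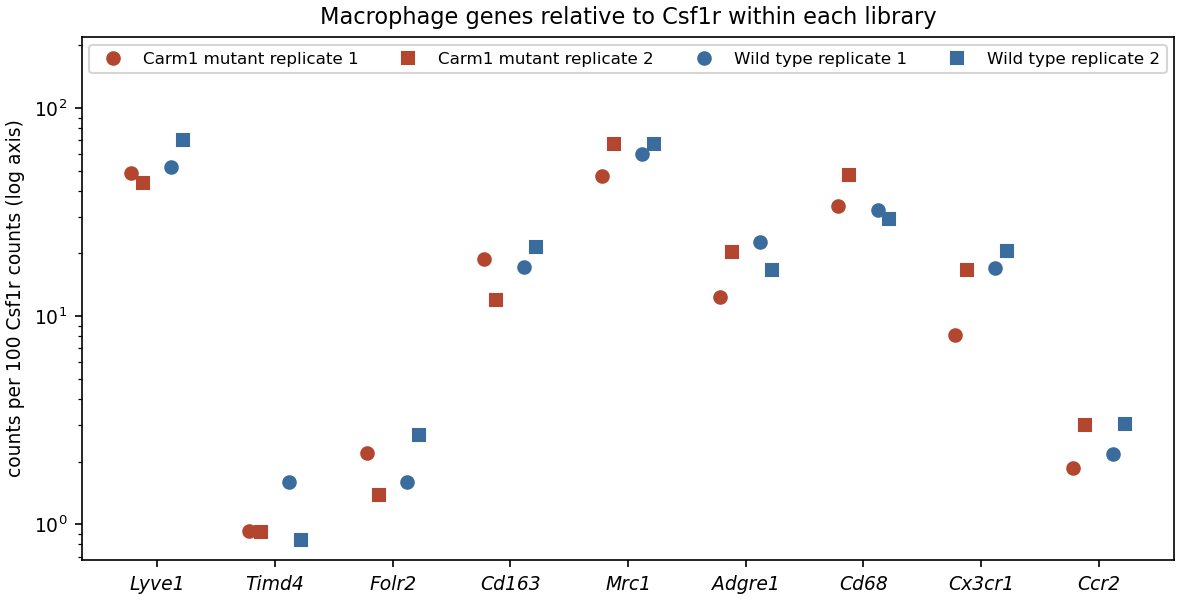
Counts of each macrophage gene per 100 Csf1r counts of the same library (log axis), Carm1 mutant hearts in red left of wild-type hearts in blue. Lyve1 and Cx3cr1 lie lower and Cd68 higher in both mutant libraries than in both wild-type libraries, and the other 6 genes overlap.

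The core list holds 22 genes that most macrophages express. All 22 were tested and 0 were called by edgeR, by DESeq2 and by limma-voom, with 0 at an unadjusted edgeR p below 0.05 and a median log2 fold change of 0.20. That median rests on the wild-type libraries and the scaling: it was −0.0052 without wild type replicate 2, 0.38 without wild type replicate 1 and 0.60 with library totals alone, where the median of all genes was 0.41. The 2 with most reads were Lyz2, which encodes lysozyme, with 66.4 and 72.6 CPM in mutant and 69.1 and 53.8 CPM in wild type, and C1qb, a chain of complement C1q, with 44.9 and 53.4 CPM against 48.8 and 34.1 CPM. The list summed to 288 and 320 CPM in mutant and 296 and 234 CPM in wild type. In this list wild type replicate 2 was lower than wild type replicate 1, while Lyve1, Mrc1, Cd163 and Cx3cr1 were higher in wild type replicate 2. These libraries also differed by transcript length: the deviation of a gene from its mean over libraries correlated across genes with merged exon length at a Spearman's rho of 0.18 and −0.015 in mutant replicates 1 and 2, and −0.30 and 0.25 in wild type replicates 1 and 2. The part of this in the values was not tested.

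Of 16 companions of resident macrophages 12 were tested and 0 called by edgeR, with 4 at an unadjusted p below 0.05 and a median log2 fold change of 0.18; DESeq2 called 1, Igf1, and limma-voom 0. Selenop, a selenium carrier, had 341 and 302 CPM in mutant and 400 and 349 CPM in wild type, and Gas6, a ligand that bridges dying cells to phagocytes, 166 and 149 CPM against 227 and 186 CPM. The 4 genes with a low unadjusted p, chosen after their values were seen, were the growth factor gene Igf1 (37.5 and 34.8 CPM in mutant, 20.5 and 23.6 in wild type, edgeR FDR 0.0585), the scavenger receptor gene Stab1 (106 and 89.8 against 43.9 and 74.3, FDR 0.130), the lectin gene Mgl2 (0.877 and 1.25 against 2.57 and 2.15, FDR 0.106) and the carbonyl reductase gene Cbr2 (16.4 and 22.4 against 14.1 and 11.9, FDR 0.149). Igf1, Stab1 and Cbr2 were above and Mgl2 below wild type without overlap. Of the 12 tested, 9 did not overlap between the groups, beside 59% of all genes tested. An unadjusted edgeR p below 0.05 was found for 27.8% of all genes tested. Other heart cells also express Igf1 and Stab1. Selenop and Gas6 lay above Lyz2, the core macrophage gene with most reads, in every library. Which cells gave their reads was not tested.

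Of 16 growth factors and transcription factors of macrophages 14 were tested, 0 rose, 2 fell and 12 did not pass (median 0.19). Mitf, a transcription factor that cardiomyocytes also express, fell to 21.9 and 19.3 CPM in mutant, against 44.2 and 56.1 CPM in wild type (log2 fold change −1.28, SE 0.21, edgeR FDR 0.0176). Mitf was not called without mutant replicate 2 (FDR 0.115) or with library totals alone (−0.90, FDR 0.0571). The cardiomyocyte list, which moves with Mitf, had a median of −0.86, and its part in the result was not tested.

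Of 17 chemokines and their receptors 12 were tested, 1 rose, 0 fell and 11 did not pass (median 0.40). Cxcr4, the receptor for CXCL12 on leukocytes and endothelium, rose to 16.2 and 14.1 CPM in mutant, against 6.29 and 5.26 CPM in wild type (log2 fold change 1.39, SE 0.22, edgeR FDR 0.0171); without mutant replicate 1 its FDR was 0.0517. Of 13 inflammatory mediators 7 were tested, 1 rose, 0 fell and 6 did not pass (median 0.18). The 6 untested ones, among them Il1b, Il6 and Tnf, had at most 11 counts in any library. Which cells gave the reads of these mediators was not tested. Nos2, the inducible nitric oxide synthase, rose to 19.98 and 17.9 CPM in mutant, against 9.95 and 11.3 CPM in wild type (log2 fold change 0.84, SE 0.20, edgeR FDR 0.0453). Nos2 was not called without mutant replicate 1 (FDR 0.408) or mutant replicate 2 (FDR 0.236).

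Receptors and bridging molecules for apoptotic cells and lipoproteins numbered 16, of which 14 were tested and 0 called by edgeR, with 4 at an unadjusted p below 0.05 and a median of 0.24; DESeq2 called 1 and limma-voom 0. Cd36, a fatty acid and scavenger receptor that cardiomyocytes and capillaries also carry, had 709 and 555 CPM in mutant and 1197 and 1123 CPM in wild type (edgeR FDR 0.0630), and Mfge8 223 and 240 CPM against 209 and 190 CPM. Of 12 genes of MHC class II and costimulation 10 were tested and 0 called by edgeR, DESeq2 or limma-voom, with 2 at an unadjusted edgeR p below 0.05 and a median of −0.31. Cd74, the invariant chain, had 12.4 and 15.1 CPM in mutant and 16.6 and 16.2 CPM in wild type, and H2-Ab1 2.83 and 3.83 CPM against 5.03 and 4.34 CPM. Both were lower in each mutant library than in either wild-type one, as were 28.7% of all genes tested, and neither was called. Of the 10 tested, 4 log2 fold changes lay above 0 and 6 below. The 2 with a low unadjusted p, beside 27.8% of all genes tested, were named after their values were seen and went opposite ways. H2-Eb1 was lower (log2 fold change −0.89, edgeR FDR 0.143) and Cd80 higher (1.31, edgeR FDR 0.116).

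**Figure D4:**
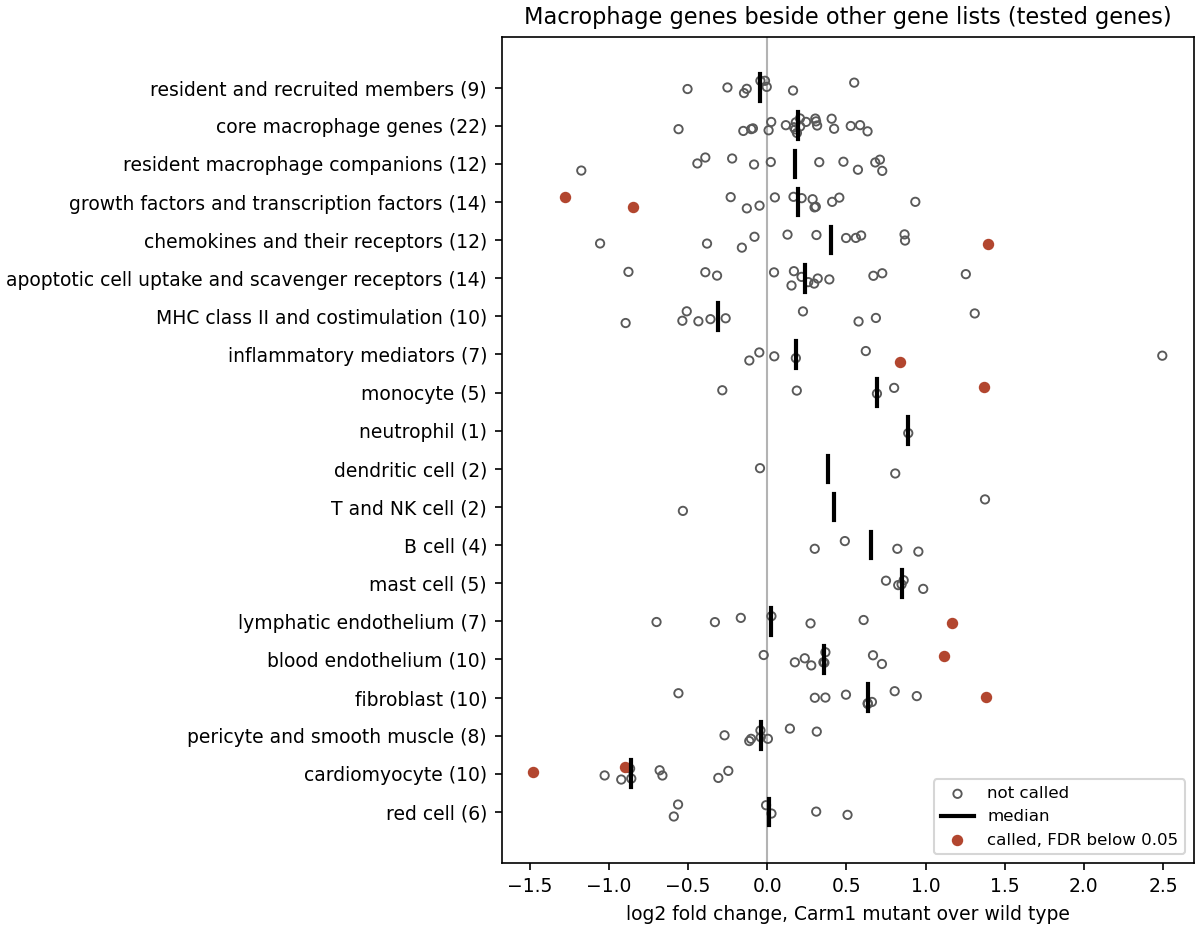
Log2 fold change of Carm1 mutant over wild-type hearts for the tested genes of each list (points, number in parentheses; filled where called at an FDR below 0.05) with the list median (bar); points are spread vertically for legibility. The 9 macrophage genes centre at −0.04 and the core macrophage genes at 0.20 (−0.0052 without wild type replicate 2), beside 0.63 for fibroblasts and −0.86 for cardiomyocytes.

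Markers of other cells show what moved around the macrophage genes. Fibroblast markers summed to 6327 and 6744 CPM in the mutant hearts and 4166 and 4678 CPM in the wild-type hearts, with 1 of 10 higher (Postn, edgeR FDR 0.0189) and a median of 0.63. Blood endothelium summed to 2445 and 2125 CPM in mutant and 1538 and 2012 CPM in wild type, with 1 of 10 higher (Cldn5, edgeR FDR 0.0257) and a median of 0.36. Lymphatic endothelium had 1 of 7 higher (Nrp2, edgeR FDR 0.0404), a median of 0.03 and its other markers not called. Cardiomyocyte markers had 2 of 10 lower (Atp2a2, FDR 0.0203, and Pln, FDR 0.0443, by edgeR). Postn was not called without mutant replicate 2, and Cldn5, Nrp2, Atp2a2 and Pln without either mutant replicate. The median of the 9 macrophage genes was −0.04, and the part that cell makeup has in any of these values was not tested.

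Of 15 monocyte markers 5 were tested and 1 rose, Nr4a1 (83.9 and 69.5 CPM in mutant, 22.8 and 36.5 CPM in wild type, edgeR FDR 0.0256, and 0.0554 without mutant replicate 1), a gene that many heart cells induce. Neutrophil markers summed to 3.11 and 6.70 CPM in mutant and 2.06 and 3.37 CPM in wild type, with 1 of 13 tested and Mpo and Elane at 0 in all libraries. Of dendritic cell markers 2 of 9 were tested (median 0.38), and of T and NK cell markers 2 of 13 (0.42). Of B cell markers 4 of 7 were tested (0.66), and of mast cell markers 5 of 7 (0.85). These lists had 0 calls by edgeR, DESeq2 or limma-voom. In this order, 1, 1, 0 and 3 genes had an unadjusted edgeR p below 0.05, beside 27.8% of all genes tested. Red cell markers, a sign of retained blood, summed to 539 and 864 CPM in mutant and 711 and 508 CPM in wild type and had 0 of 6 called; Hba-a1 had 302 and 462 CPM in mutant and 360 and 256 CPM in wild type. Pericyte and smooth muscle markers had 0 of 8 called (median −0.04). Adipocyte markers summed to at most 0.801 CPM and none was tested.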

How the data were processed

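RNA-seq of whole mouse hearts at postnatal day 14 gave 4 libraries, 2 per genotype, grouped by their titles. The submitters' processing notes name FastQC, HISAT2 and the mm10 build; no source used here gives versions, the counting program, its annotation, its strand setting or its treatment of reads with several matches. The authors deposited raw counts per Ensembl gene, used as deposited. Names, positions and merged exon lengths came from GENCODE M21 on the same assembly (54723 of 54752 rows named). Of the rows 28283 held 0 in all libraries.

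In R 4.3.3, filterByExpr of edgeR 4.0.16 kept 15283 genes, and its quasi-likelihood test was run on TMM-scaled libraries with genotype as the only term, 2 residual degrees of freedom and Benjamini-Hochberg adjustment at 0.05. Each SE was computed as |log2 fold change|/√F. The fit was tested on simulated data. CPM are TMM-normalised, and ± is the SD of 2 libraries. The limit that a count of 0 allows, 3 counts, was 0.135 to 0.257 CPM; intervals and floors cover counting error only. No library repeated another within counting error (chi-square over genes). Alternatives used DESeq2 1.42.0, limma 3.58.1, other scalings and filters, each library left out, and the replicate number as a block.

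The 10 genes and the lists were chosen with earlier results of these data known, and lists were only counted, with no set test. Named by rule were the 10 genes, Carm1, the sex-linked genes, up to 4 called genes (otherwise the 2 most abundant) of each macrophage list and up to 2 called genes (otherwise the most abundant, of which some are given only within their list's sum) of each marker list. Some results covered by this rule are not reported here.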

Additional observations from a re-analysis of the deposited data

How the results depend on the processing

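In all 11 alternatives 0 of the macrophage genes tested and 0 of the 22 core genes were called (Timd4 was tested only with no filter, and Folr2 and Ccr2 not with a filter of 1 CPM); the smallest adjusted p of a macrophage gene was 0.0521 (Cd68, library totals only). The number of all genes called was 1126, against 2630 with no filter, 1709 by DESeq2, 1395 with library totals only (1189 higher and 206 lower, beside 426 higher and 700 lower with TMM) and 377 to 5679 with a library left out (377 when mutant replicate 2 was dropped, 5679 when wild type replicate 2 was). Library totals alone moved the median over all genes to 0.41 (log2) and turned several signs: Lyve1 to 0.12, Folr2 to 0.32, Cd163 to 0.22, Mrc1 to 0.37, Adgre1 to 0.28, Ccr2 to 0.38, Selenop to 0.18, Gas6 to 0.011, Cd74 to 0.13, Csf1 to 0.34 and Ccl21a to 0.25; relative to that shift each was still at or below 0. Ccr2 was 0.00734 by DESeq2 and 0.040 with the replicate block, and Ccl2 −0.19 by limma-voom. With a library left out, values ran from −0.53 to 0.41 for Folr2, −0.59 to 0.15 for Cd163, −0.23 to 0.18 for Mrc1, −0.46 to 0.16 for Adgre1, −0.29 to 0.30 for Ccr2, −0.031 to 0.35 for Lyz2, −0.032 to 0.51 for C1qb, −0.038 to 0.58 for Hba-a1, −0.078 to 0.43 for Il34, −0.081 to 0.51 for Spi1, −0.93 to 0.83 for Ccl2 and −0.52 to 0.21 for Ccl21a. Cd68 and Csf1r stayed above 0 and Cx3cr1 below 0 in all 11. Ccr2 differed between the groups (mutant minus wild type) by 1.02 counts per 100 Adgre1 counts and −2.64 per 100 Cd68 counts, beside −0.18 per 100 Csf1r counts. DESeq2 called 8 cardiomyocyte, 3 fibroblast and 3 blood endothelial markers, where edgeR called 2, 1 and 1. The causes were not tested.

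The labels number the replicates 1 and 2 in each group, but nothing ties the same numbers together, and the deviations of same-numbered libraries correlated across genes by Spearman's rho of −0.32. With the replicate block 1222 genes and 0 macrophage genes were called, and Nos2 and Pln, among others, were no longer called (adjusted p 0.0673 and 0.112). Depth limits Timd4, Folr2 and Ccr2 most, at 4 to 19 counts per library. Where a library was left out, its lone partner took its spread from the other genotype.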
